A study of Homo sapiens with 4 samples.

Results

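The genes described here encode the tubulins, the proteins that bind and organise microtubules, and the tubulin-sequestering stathmins. They are 40 named genes, taken by symbol from a table of 60671 genes: 15 tubulins, 10 proteins that bind along the microtubule lattice, 3 end-binding proteins, 2 doublecortin family members, 4 stathmins, 5 collapsin response mediator proteins (CRMPs) and the growth cone protein GAP43. All 40 passed the filter on low counts, which left 16309 genes for testing. From general knowledge of where each gene is expressed, 20 members were classed as neuronal, 13 as ubiquitous and 7 as mixed. The classes were set with earlier results of these data known, so the contrast between them is a description only. The mixed class held genes that are raised in neurons or another tissue but also present elsewhere (TUBA4A, TUBB2A, TUBG2, MAP7, MAP9, STMN1 and DPYSL2).

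RNA was sequenced from SK-N-BE(2), an established human line of MYCN-amplified neuroblastoma, to ask which transcripts change when METTL14 is depleted. METTL14 is the partner of METTL3 in the methyltransferase complex that deposits N6-methyladenosine (m6A) on RNA. The control group (shNC) carried a non-targeting hairpin and the other group (shMETTL14) a hairpin against METTL14, each with 2 libraries. According to the study's methods, hairpins were delivered with the pLKO.1 lentiviral vector and both groups were selected with puromycin to give stable lines, and the labels do not say which METTL14 hairpin was used or whether the libraries of a group came from separate cultures. P-values therefore measure the spread between these libraries, which may be technical.

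Microtubules are hollow polymers of alpha and beta tubulin dimers. Each tubulin family has several isotypes, encoded by separate genes, which differ most in the acidic tail at the carboxyl end, where many microtubule-associated proteins dock and where enzymes add or remove tyrosine and glutamate. In neurons, and in neuroblastoma cells that extend neurites, MAP2, tau and doublecortin stabilise or bundle the polymer, stathmins hold free dimers and promote shrinkage, and CRMPs help to steer the growth cone.

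The ends of the beta tubulin coding sequences show how far apart the isotypes are and which of them short reads can separate. Each line gives the last 60 bases of the coding sequence, stop codon included, 5′ to 3′ on the coding strand, from the GENCODE 29 transcripts on GRCh38. Capitals mark bases that differ, after pairwise alignment, from TUBB.
TUBB: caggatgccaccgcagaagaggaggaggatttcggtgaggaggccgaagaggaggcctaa
TUBB4B: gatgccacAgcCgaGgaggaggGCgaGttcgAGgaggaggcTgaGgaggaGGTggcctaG
TUBB2A: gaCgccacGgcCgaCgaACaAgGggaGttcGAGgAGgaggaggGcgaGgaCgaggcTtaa
TUBB2B: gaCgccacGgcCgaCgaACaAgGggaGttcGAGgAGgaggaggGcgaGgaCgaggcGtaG
TUBB3: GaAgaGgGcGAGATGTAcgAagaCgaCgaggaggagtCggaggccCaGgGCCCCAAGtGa

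TUBB3 differed from TUBB at 27 of these 60 bases, TUBB2B at 19, TUBB2A at 18 and TUBB4B at 14. Over the whole coding sequence, TUBA1A and TUBA1B shared 97.2% of aligned bases and TUBB2A and TUBB2B shared 98.1%, whereas TUBB shared between 81.3% and 84.9% with the other beta members. Sharing was also measured in windows of 150 bases, the read length, along each member's transcript. In 31 of the 40 members no such window occurred in another annotated gene. In TUBB2A and TUBB2B, 49.4% and 39.4% of windows did, almost all of them in each other, and in TUBA1B 19.2% did. Values of these close pairs are uncertain to the extent that reads from the shared windows were dropped or split.

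METTL14 itself was counted at 753 and 754 in the shNC libraries and at 303 and 321 in the shMETTL14 libraries, a log2 change of -1.26 (SE 0.0832, edgeR quasi-likelihood test, Benjamini-Hochberg adjusted p = 3.6e-11). Depth was even, between 18925786 and 19886214 counts in genes per library. All 9 noradrenergic neuroblastoma markers were expressed. Of these, 7 fell and 2 rose (ISL1 and MYCN), with a summed level between 4778 and 4821 CPM (counts scaled by TMM to a common library size) in shNC and between 4973 and 5024 CPM in shMETTL14. The higher sum followed MYCN, whose mean went from 2616 to 3173 CPM, and not the 7 markers that fell. Of 9 fibroblast or mesenchymal markers, 5 fell and 1 rose, PRRX1 was at or under 3 counts in every library, and the sum went from between 592 and 609 CPM to between 547 and 558 CPM. Of 6 Schwann or glial markers, SOX10 and FOXD3 were at or under 3 counts, S100B fell, and the sum was between 4.86 and 5.82 CPM in shNC and between 3.83 and 4.26 CPM in shMETTL14. The 3 immune markers, of which CD68 and CD3E were at or under 3 counts, summed to between 1.86 and 2.19 CPM in shNC and between 1.61 and 1.63 CPM in shMETTL14. The 3 ciliated or epithelial markers, of which EPCAM fell, summed to between 5.27 and 5.59 CPM and then to between 2.96 and 3.47 CPM. The part that these marker shifts played in the results on microtubule genes was not tested. In RNA from bulk cultures, fewer cells of a kind and less RNA per cell cannot be told apart.

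Most of the 40 members were higher after METTL14 knockdown. The largest increases were those of STMN4, a brain stathmin, at 359% of its shNC level and of the low-count alpha tubulin TUBA4A at 314%. They were followed by DPYSL3, a growth cone CRMP, at 211%, the beta tubulin TUBB2A and MAP2, the dendritic microtubule protein, both at 205%, TUBB3 at 200.2%, and DCX, the protein of migrating and newly formed neurons, at 191%. The most abundant ubiquitous tubulins, TUBB and TUBA1B, stood at 102% and 106% and did not pass the test. At an adjusted p under 0.05 by edgeR's quasi-likelihood test, 30 of the 40 members changed, against 52.5% of all genes tested. Of these, 28 rose, against 27.2% of all genes, and 2 fell (MAP7 and TUBE1), against 25.3% of all genes. The shares over all genes included genes without a coding transcript. Of the 12788 coding genes tested, 4221 rose, 3266 fell and 5301 were not called. With a change of at least 1.5-fold also required, 14 members were called, against 18.8% of all genes: 13 were higher, against 7.44%, and 1 was lower, against 11.4%. The median log2 fold change of the members was 0.40, beside -9.5e-04 over all genes tested. Members were also more abundant, at a median log2 CPM of 6.61 against 4.98 over coding genes tested. Among coding genes that median was 5.56 for those called higher, 4.99 for those called lower and 4.32 for those not called. The part that abundance played in the share of members called was not tested.

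**Figure D1:**
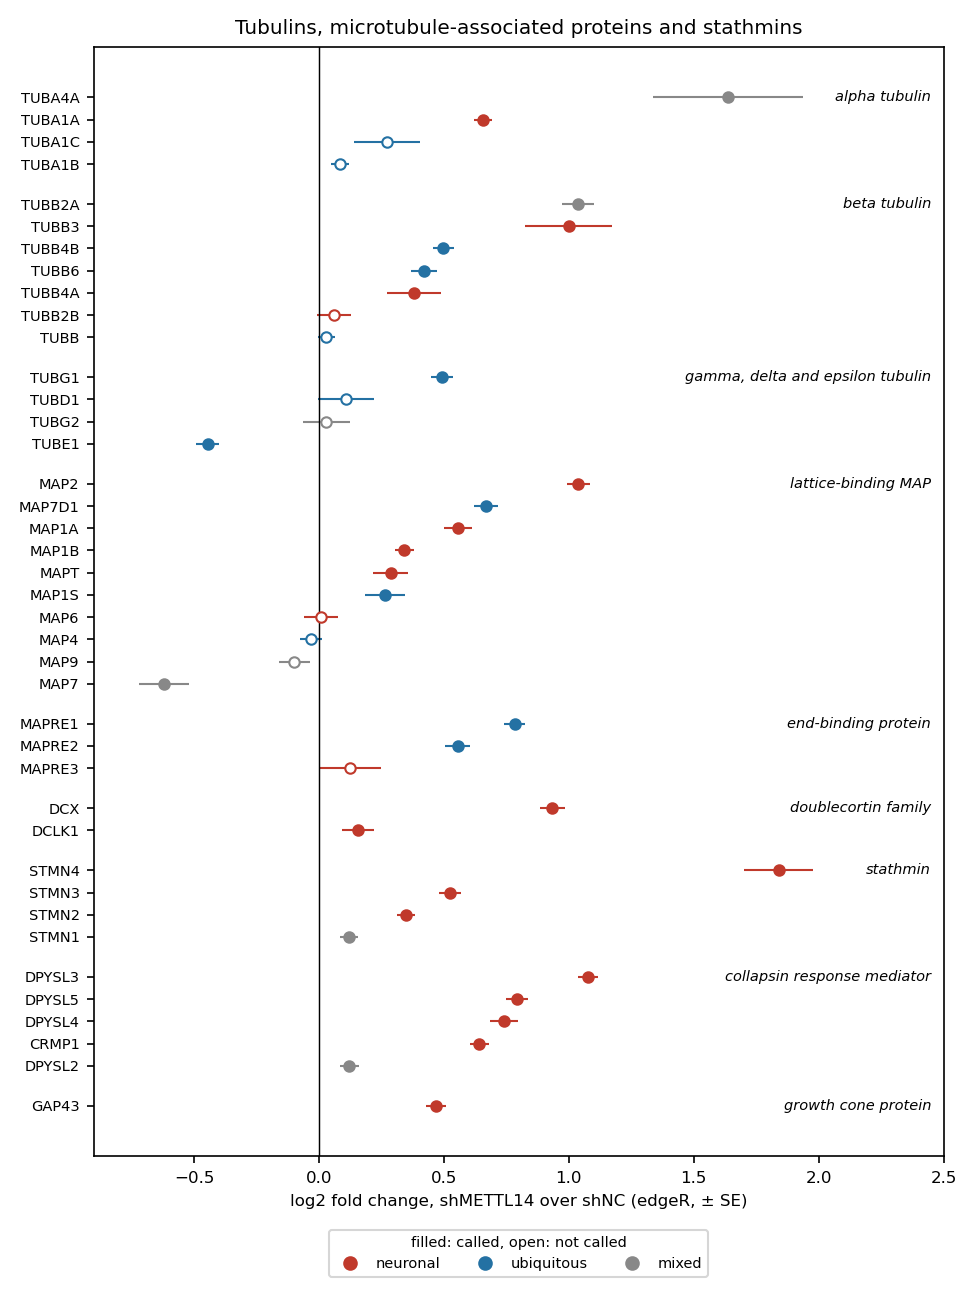
Log2 fold change of each of the 40 members, shMETTL14 over shNC, with its standard error from edgeR as a bar, grouped by role; colour gives the class, and filled points are genes with an adjusted p under 0.05. Only MAP7 and TUBE1 have filled points left of 0, and STMN4 and TUBA4A lie farthest to the right.

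Of the 20 neuronal members, 17 rose, 0 fell and 3 were not called (TUBB2B, MAP6 and MAPRE3), with a median log2 fold change of 0.54. At 1.5-fold or more, 9 were higher. The neuronal shares were 85% called and 45% at 1.5-fold, beside 52.5% and 18.8% of all genes tested. Of the 13 ubiquitous members, 7 rose, 1 fell and 5 were not called, with a median of 0.27, and 2 were higher at 1.5-fold (MAP7D1 and MAPRE1). The ubiquitous shares were 61.5% called and 15.4% at 1.5-fold, the latter under that of all genes. Among the 7 mixed members, 4 rose, 1 fell and 2 were not called, and the median was 0.12. The mixed shares, of few genes, were 71.4% and 42.9%. The classes do not separate cleanly: MAPRE1, classed as ubiquitous, rose by 0.78 and MAPT, classed as neuronal, by 0.29, and the difference between the class medians was not tested, since genes are not replicates of a condition. Summed over the class, the neuronal members held 5052 and 4966 CPM in the shNC libraries and 7183 and 7118 CPM in the shMETTL14 libraries, or 143% of the shNC level. The ubiquitous members held 6254 and 6511 CPM and then 6962 and 6890 CPM, or 109%. Such sums follow the few most abundant genes, here TUBB, TUBA1B, TUBA1A, MAP1B and STMN2.

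**Figure D2:**
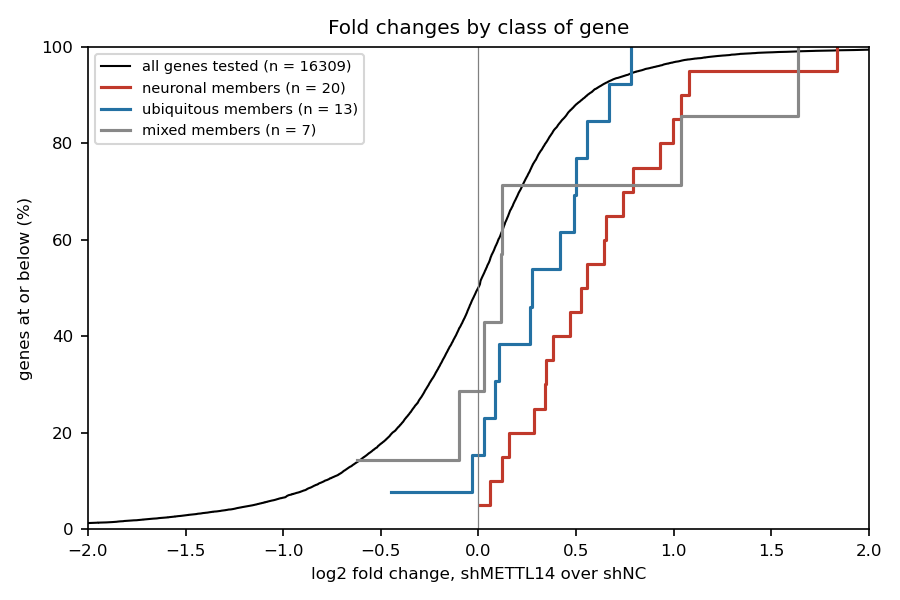
Cumulative share of genes (y axis, percent) at or below each log2 fold change (x axis, shMETTL14 over shNC) for all 16309 genes tested and for the 20 neuronal, 13 ubiquitous and 7 mixed members. The neuronal line starts near 0 and lies to the right of the line for all genes over nearly its whole course, with medians of 0.54 for neuronal and 0.27 for ubiquitous members.

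Among the alpha tubulins, the neuronal isotype rose and the most abundant ubiquitous one did not pass the test. TUBA1A, the main alpha tubulin of developing neurons (chromosome 12, 49184796 to 49189324, minus strand), was counted at 25732 and 25319 in shNC and at 41027 and 38909 in shMETTL14. The groups did not overlap, and the log2 fold change was 0.66 (SE 0.0357, adjusted p = 1.6e-12). TUBA1B, the broadly expressed alpha tubulin of the same strand and chromosome (49127782 to 49131397), had 49279 and 50353 counts in shNC and 53614 and 51507 in shMETTL14. Its log2 change of 0.09 (SE 0.0363) gave an adjusted p of 0.0522. TUBA4A, which encodes an alpha tubulin without the terminal tyrosine, had the largest increase of the family but few reads, 23 and 16 counts in shNC against 57 and 64 in shMETTL14 (log2 fold change 1.64, SE 0.301, adjusted p = 9.1e-05). TUBA1C was counted between 143 and 151 in shNC and between 174 and 179 in shMETTL14, and with a log2 change of 0.27 (SE 0.134, adjusted p = 0.0924) it was not called. TUBA1A and TUBA1C overlap by 490 exon bases on opposite strands, and 1309 exon bases of TUBA1B, or 36.6%, overlap an antisense gene, so without a stated strand setting these genes may have lost or exchanged reads.

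The make-up of the alpha tubulin transcripts differed accordingly between the groups. Measured as counts per kilobase of exon, TUBA1A was 35.2% and 34.4% of the alpha tubulin members in the shNC libraries and 44.3% and 44.0% in the shMETTL14 libraries. TUBA1B was 64.6% and 65.5% and then 55.5% and 55.8%. The groups lay apart for both, with less than 1 percentage point between the libraries of a group, and these shares were not tested. The summed alpha tubulin level was 3772 and 3960 CPM in shNC and 4846 and 4710 CPM in shMETTL14, which is 124% of the shNC mean.

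The beta tubulins rose in 5 of 7 members, although the dominant gene of the family did not. This was 71.4% called, of few genes, beside 52.5% of all genes tested. TUBB (chromosome 6, 30720201 to 30725426, plus strand), the isotype of most dividing cells, had 55071 and 54559 counts in shNC and 55980 and 55134 in shMETTL14, with a log2 change of 0.03 (SE 0.0338, adjusted p = 0.506). TUBB4B, a widespread isotype also used in cilia, was counted at 5030 and 5072 in shNC and at 7282 and 6901 in shMETTL14, with no overlap between the groups and a log2 change of 0.50 (SE 0.0407, adjusted p = 1.1e-09). TUBB2A was counted at 624 and 589 and then at 1203 and 1270, a log2 change of 1.04 (SE 0.0653, adjusted p = 1.8e-11). Its near-identical neighbour TUBB2B, an isotype of the developing brain, had 3007 and 2741 counts in shNC and 2642 and 3300 in shMETTL14, so the groups overlapped (log2 fold change 0.06, SE 0.0683, adjusted p = 0.494). The value of TUBB2B was set by single libraries: without shMETTL14 library 1 it rose by 0.23 and passed the test, and without shMETTL14 library 2 it was -0.12 and did not.

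TUBB3, the class III isotype that is widely used as a marker of neurons, was scarce in these libraries, at 77 and 63 counts in shNC and 136 and 142 in shMETTL14. The groups did not overlap, and the log2 fold change was 1.00 (SE 0.173, adjusted p = 4.7e-05). The low count has a limit of its own. Of the 1620 windows of 150 bases in the TUBB3 transcript, 1437, or 88.7%, also lie in AC092143.1, an annotated protein-coding gene on the same strand that reads through into TUBB3 (chromosome 16) and that itself had 0 counts in all 4 libraries. The TUBB3 values may rest on the remaining sequence, so that its level cannot be set against the other isotypes, while its ratio between groups uses the same sequence in each library. TUBB4A, a brain isotype (237 and 216 counts in shNC, 308 and 278 in shMETTL14), and TUBB6, a widespread one (1191 and 1194, then 1635 and 1534), both rose, with log2 fold changes of 0.38 and 0.42. The call of TUBB4A was lost with DESeq2 (adjusted p = 0.0654).

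**Figure D3:**
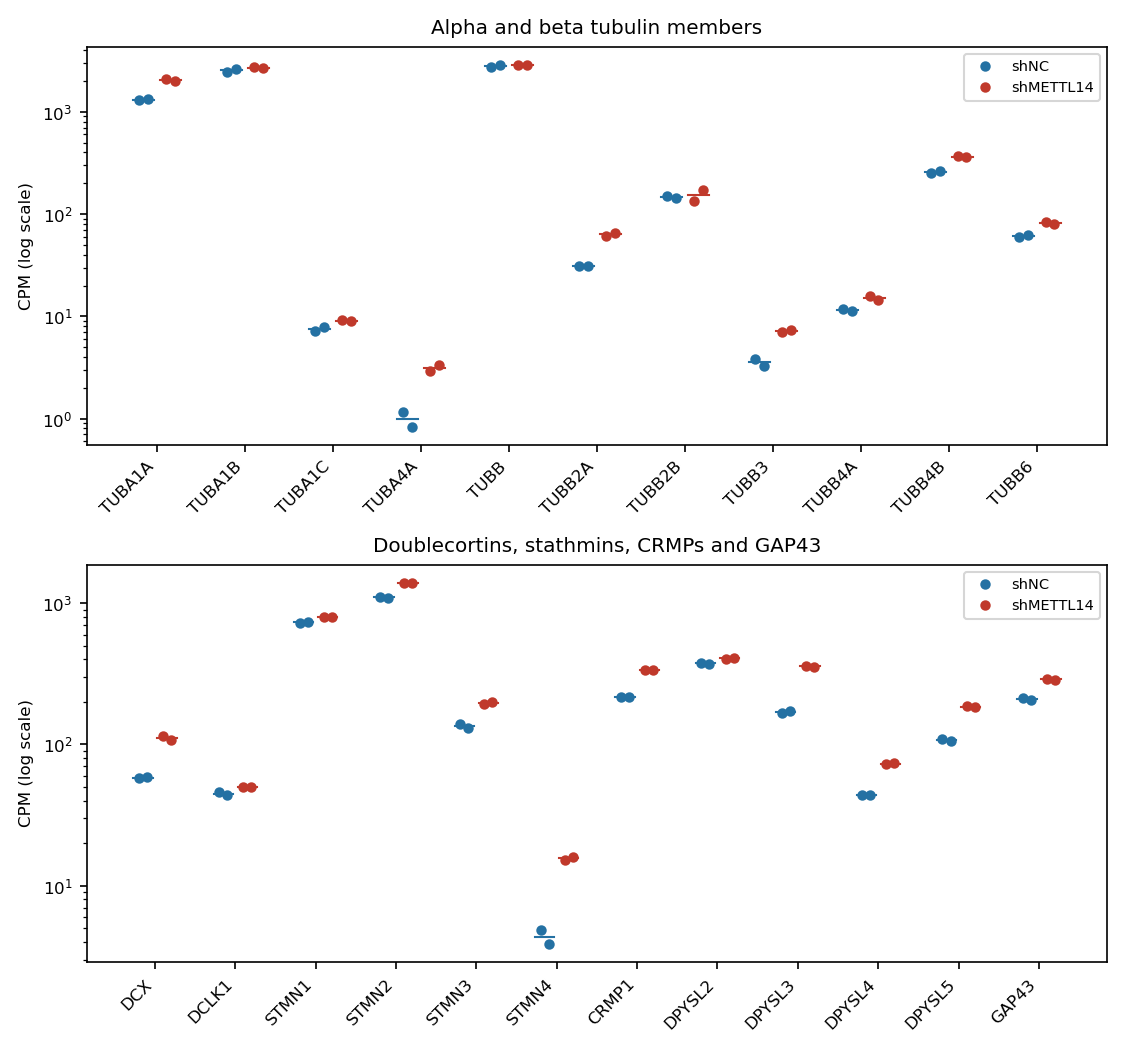
CPM after TMM scaling in each library (points, log axis) and the group mean (short line) for the alpha and beta tubulins in the upper panel and for the doublecortins, stathmins, CRMPs and GAP43 in the lower panel. TUBB and TUBA1B lie near the same height in both groups, whereas TUBA1A, TUBB2A, DCX, STMN4 and DPYSL3 have both shMETTL14 points above both shNC points.

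Per kilobase of exon, TUBB made up 78.5% and 78.8% of the beta tubulin members in shNC and 74.0% and 73.3% in shMETTL14. The share of TUBB4B went from 11.4% and 11.7% to 15.3% and 14.6%, and that of TUBB2A from 1.73% and 1.66% to 3.09% and 3.28%. TUBB2B held 6.56% and 6.06% and then 5.34% and 6.71%, with overlapping groups. For TUBB3, whose windows lie mostly in AC092143.1 as well, the share is too uncertain to be read as a level and serves only to compare libraries: it was 0.0832% and 0.0690% in shNC and 0.136% and 0.143% in shMETTL14, a difference of 0.0635 percentage points, and an exact two-sided permutation test over the 4 libraries gave p = 0.333, the smallest value that 2 libraries against 2 allow. The beta tubulins summed to 3273 and 3365 CPM in shNC and to 3534 and 3562 CPM in shMETTL14, 107% of the shNC mean. Of the 6 members other than TUBB, TUBB2B was the one that was not called.

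**Figure D4:**
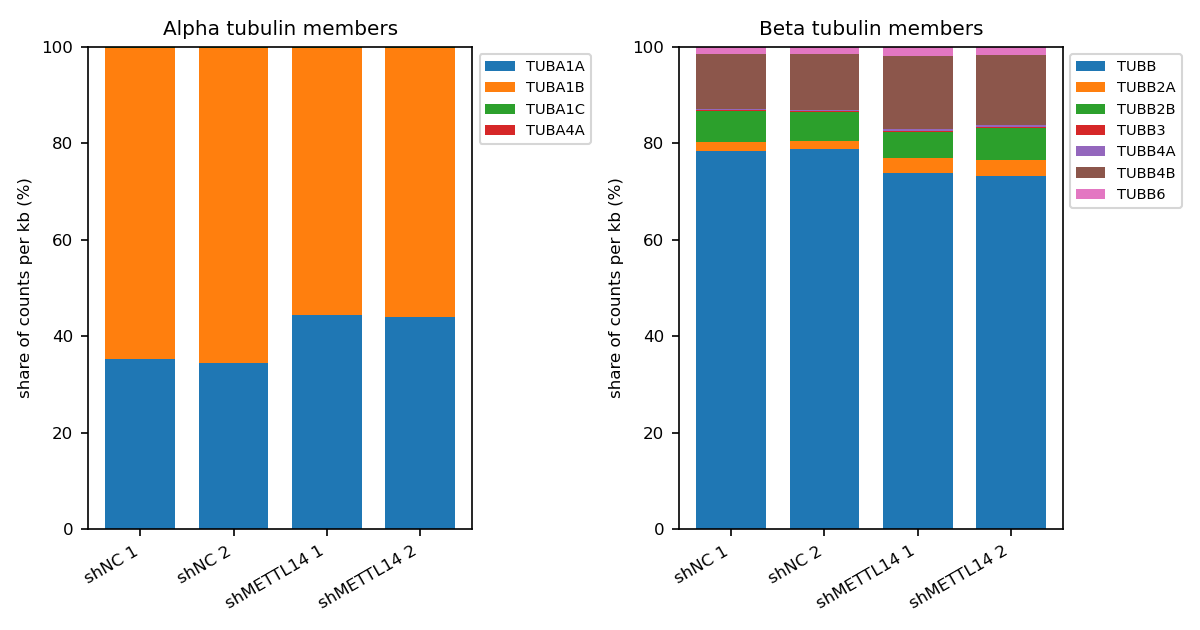
Share of each isotype (percent of counts per kilobase of exon) among the 4 alpha tubulin members and the 7 beta tubulin members in each of the 4 libraries. The TUBA1A segment is larger in both shMETTL14 libraries (44.3% and 44.0%) than in both shNC libraries (35.2% and 34.4%), and TUBA1C, TUBA4A and TUBB3 are too small to see.

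The tubulins of the centrosome split. TUBG1, the gamma tubulin that nucleates microtubules, rose from 2447 and 2214 counts to 3308 and 3197 (log2 fold change 0.49, SE 0.0445, adjusted p = 5.9e-09). TUBE1, the epsilon tubulin of centrioles, fell from 2285 and 2226 counts to 1636 and 1655, or 73.4% of the shNC level (log2 fold change -0.45, SE 0.0461, adjusted p = 4.3e-08). TUBG2, the second gamma tubulin, and TUBD1, the delta tubulin of centrioles, had overlapping groups and log2 fold changes of 0.03 and 0.11, with adjusted p of 0.812 and 0.449.

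Among the 10 lattice-binding proteins, 6 rose and 1 fell, or 70% called, of few genes, beside 52.5% of all genes tested. MAP2 had 1643 and 1666 counts in shNC and 3349 and 3398 in shMETTL14, a log2 change of 1.04 (SE 0.0459, adjusted p = 5.6e-14). The libraries of each group lay within 6 CPM of each other, at 82.4 and 87.0 CPM in shNC and 171 and 177 CPM in shMETTL14. MAP1B, an early neuronal MAP and the most abundant of these genes per kilobase, had 25184 and 22438 counts in shNC and 30251 and 29645 in shMETTL14, for a log2 change of 0.34 (SE 0.0384, adjusted p = 1.5e-07). MAP1A, its relative in mature neurons, rose by 0.56 (SE 0.0555, adjusted p = 2.5e-08). MAPT, which encodes the axonal protein tau, rose less: 783 and 739 counts became 989 and 857, a log2 change of 0.29 (SE 0.0705, adjusted p = 0.00164), and the call was lost without shMETTL14 library 1 (adjusted p = 0.0695).

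The ubiquitous and mixed lattice-binding members were uneven. MAP7D1 rose from 1494 and 1363 counts to 2227 and 2286 (log2 fold change 0.67, SE 0.0488, adjusted p = 1.9e-10), whereas MAP7, its paralog that recruits kinesin-1, fell from 670 and 596 to 468 and 350 (log2 fold change -0.62, SE 0.0994, adjusted p = 1.8e-05). The shMETTL14 libraries were apart for MAP7, at 23.9 and 18.2 CPM, and both lay under the shNC values of 33.6 and 31.1 CPM. MAP1S, the short ubiquitous member of the MAP1 family, had a log2 fold change of 0.26 (adjusted p = 0.00876) that was lost in 3 of 11 alternatives. MAP4, the main MAP of non-neuronal cells, and MAP9, a spindle protein, had log2 fold changes of -0.03 and -0.10 and were not called. Nor was MAP6, which protects microtubules from cold and was classed as neuronal, at 0.01, so not every neuronal lattice-binding member rose.

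The end-binding proteins track the growing plus ends of microtubules and recruit other factors there. MAPRE1 (EB1) rose from 2563 and 2543 counts to 4428 and 4309, 172% of the shNC level (log2 fold change 0.78, SE 0.0418, adjusted p = 1.1e-12). MAPRE2 (EB2) rose from 1756 and 1844 to 2704 and 2553 (log2 fold change 0.55, SE 0.0491, adjusted p = 4.1e-09). The neuronal member, MAPRE3 (EB3), was counted at 198 and 246 in shNC and at 237 and 244 in shMETTL14, so the groups overlapped (log2 fold change 0.12, SE 0.125, adjusted p = 0.429). In this family the ubiquitous members rose and the neuronal one was not called, the reverse of the alpha tubulins.

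DCX, on the X chromosome (111293779 to 111412429, minus strand), had 1150 and 1119 counts in shNC and 2237 and 2069 in shMETTL14. Its log2 fold change was 0.93 (SE 0.0508, adjusted p = 1.6e-12). DCLK1, which joins a doublecortin domain to a kinase domain, had 915 and 835 counts in shNC and 979 and 958 in shMETTL14, with a log2 change of 0.16 (SE 0.0626, adjusted p = 0.0408). The call of DCLK1 was lost in 8 of 11 alternatives, so the rise in this family rests on DCX.

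All 4 stathmins were called higher, against 27.2% of all genes tested, by widely different amounts. STMN4 was counted at 97 and 74 in shNC and at 299 and 309 in shMETTL14, the largest change of any member (log2 fold change 1.84, SE 0.137, adjusted p = 2.7e-10). STMN3, which is bound to Golgi and vesicle membranes in neurons, rose from 2789 and 2523 counts to 3775 and 3815 (log2 fold change 0.53, SE 0.0438, adjusted p = 1.6e-09). STMN2, the growth cone stathmin also called SCG10, rose from 21891 and 20982 to 27384 and 26833 (log2 fold change 0.35, SE 0.0349, adjusted p = 2.7e-08). Per kilobase of exon, STMN2 was the most abundant stathmin at 464 CPM in shNC and 591 CPM in shMETTL14, and STMN4 the least at 1.33 and 4.76 CPM. STMN1, the cytosolic stathmin of dividing cells, moved from 14494 and 14194 counts to 15615 and 15332, a log2 change of 0.12 (SE 0.0361, adjusted p = 0.00873). The call of STMN1 was lost under upper quartile scaling, under scaling by library size and without shMETTL14 library 1. The summed stathmins stood at 122% of the shNC level.

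The CRMPs bind tubulin dimers and act downstream of semaphorin signals in growing axons. All 5 were called higher, 4 of them by at least 1.5-fold, and their median log2 fold change of 0.74 was above those of the tubulin and stathmin families. Of all genes tested, 27.2% were called higher, and 7.44% were higher at 1.5-fold or more. DPYSL3 (CRMP4) had 3339 and 3286 counts in shNC and 7032 and 6855 in shMETTL14, with the smallest adjusted p of all members (log2 fold change 1.08, SE 0.0400, adjusted p = 3.3e-15). DPYSL5 (CRMP5) rose from 2172 and 2012 counts to 3651 and 3546, DPYSL4 (CRMP3) from 877 and 837 to 1426 and 1418, and CRMP1 from 4287 and 4170 to 6638 and 6475. Their log2 fold changes were 0.79, 0.74 and 0.64. In each of these 4 genes both shMETTL14 libraries lay well above both shNC libraries.

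DPYSL2 (CRMP2), the broadly expressed CRMP and in shNC the one with the highest level per kilobase, stood apart. It had 7504 and 7155 counts in shNC and 7944 and 7892 in shMETTL14, a log2 change of 0.12 (SE 0.0378, adjusted p = 0.0102), and its call was lost under upper quartile scaling, under scaling by library size and without shMETTL14 library 2. The CRMPs summed to 912 CPM in both shNC libraries and to 1363 and 1361 CPM in the shMETTL14 libraries, 149% of the shNC level. GAP43, a growth cone phosphoprotein of regenerating axons, rose from 4230 and 3953 counts to 5723 and 5518 (log2 fold change 0.47, SE 0.0399, adjusted p = 2.3e-09).

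Levels among the members ran over more than 3 orders of magnitude. Per kilobase of exon in shNC, TUBB led at 835 CPM, followed by TUBA1B at 714, STMN2 at 464 and TUBA1A at 382. TUBA4A was lowest at 0.244 CPM, next to TUBB3 at 0.807 CPM, whose level carries the limit given above. After knockdown TUBA1A stood at 602 CPM per kilobase and STMN2 at 591. The order of the most abundant genes depends on the length used, which here counts all annotated exons of a gene. That is 3421 bases for TUBA1A against 1915 in its coding transcript, and 3574 against 1627 for TUBA1B. For TUBB it is 3359 against 2670, and for STMN2 2362 against 2223. The ranks of these 4 genes, and the order of TUBA1A and STMN2 in either group, are therefore not settled.

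A further list of 107 microtubule genes that are no members was examined in the same fit. Of these, 96 passed the filter on low counts, 33 rose and 23 fell, and the median log2 fold change was 0.05. The share called was 58.3%, beside 52.5% of all genes, which include genes without a coding transcript. Of the 12788 coding genes tested, 4221 rose, 3266 fell and 5301 were not called, so the list did not stand out from coding genes. Its share was also no longer above that of all genes under upper quartile scaling (52.1% beside 52.2%) or with DESeq2 (35.4% beside 36.9%). Among 13 tubulin folding and assembly factors, which help to make the alpha and beta dimer, 10 rose and 0 fell, with a median of 0.29. This was 76.9% called, of few genes, beside 52.5% of all genes. PFDN2, a subunit of the prefoldin chaperone, rose by 0.66 from 1415 and 1544 counts to 2362 and 2271 (SE 0.0535, adjusted p = 1.1e-09). Of 16 tested genes in the end-tracking and end-capping group, 8 rose and 5 fell (81% called). The plus-end proteins CLIP1 and CLIP2 rose by 0.52 and 0.57, and CLIP3 fell by 0.54 on the log2 scale. The 18 nucleation factors were called higher in 3 cases and lower in 3, or 33.3% called, under the 52.5% of all genes. Over the 96 tested genes of the list, 11.5% were called at 1.5-fold or more, beside 18.8% of all genes.

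Of the 18 tested genes of tubulin modification, on the tail or elsewhere, 4 rose and 5 fell, or 50.0% called, near the 52.5% of all genes. VASH1, which removes the terminal tyrosine of alpha tubulin, rose from 323 and 333 counts to 643 and 640 (log2 fold change 0.98, SE 0.0842, adjusted p = 2.7e-09). TTLL3, a tubulin glycylase, fell from 214 and 230 counts to 118 and 137 (log2 fold change -0.79, SE 0.136, adjusted p = 4.2e-05). Of 24 other lattice-binding proteins, 5 rose and 8 fell (54.2% called, again near the share of all genes), the former including MAP7D2, a MAP7 relative, at 0.81, and the latter EML1 at -0.63 and MAP10 at -0.58, whose call was lost with DESeq2 (adjusted p = 0.112), without shNC library 2 (-0.40, adjusted p = 0.183) and without shMETTL14 library 2 (-0.40, adjusted p = 0.152). Of 7 severing enzymes, 3 rose and 2 fell (71.4% called, of few genes), the latter including FIGN at -0.57. The 7 remaining tubulin genes were not tested because their counts were too low.

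**Figure D5:**
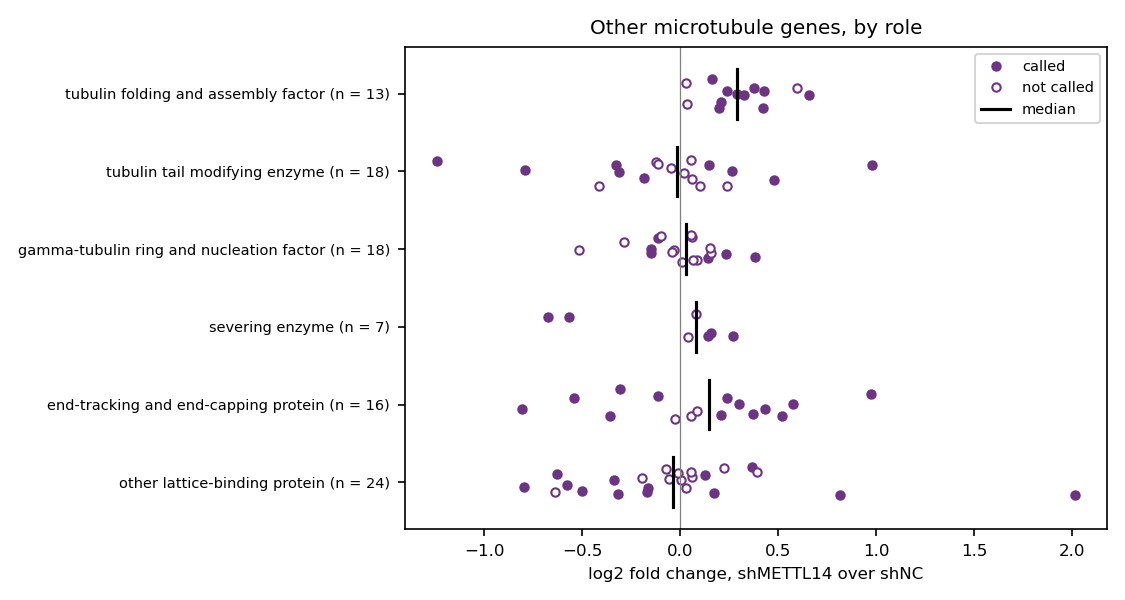
Log2 fold change (x axis, shMETTL14 over shNC) of the 96 tested microtubule genes that are no members, by role, with filled points at an adjusted p under 0.05 and a line at each median. The folding and assembly factors have no point left of 0, whereas the other roles have points on both sides.

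Sequence features that the choice of genes did not use were compared as a description. The motif GGACT, a common form of the m6A consensus, was searched on the sense strand only, in 1 coding transcript per gene. The members held a median of 0.758 copies per kilobase (n = 40), against 0.933 over 12788 coding genes tested. Members that rose held 0.758 and members not called 0.770, and the neuronal and ubiquitous classes held 0.758 and 0.972. The motif says nothing of whether a site carries m6A. Member transcripts were somewhat shorter than those of all coding genes (a median of 2647 against 3245 bases) and more abundant (a median log2 CPM of 6.61 against 4.98).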

How the data were processed

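Total RNA of 4 libraries was read as 150-base paired ends. The authors deposited raw counts of reads by Ensembl gene in 1 table, not normalized. The submitters' processing notes name HISAT2 2.1.0, StringTie 1.3.6, HTSeq 0.13.5 and edgeR, with the builds GRCh38 and hg38. Neither the strand setting nor the release of the annotation was given in the sources used here. Of the 40 members, 21 overlap another gene by exons, 19 of them on the opposite strand. Lines naming no gene held 19.1% to 19.9% of a library's counts and were left out.

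Counts were tested with edgeR 4.0.16 in R 4.3.3: TMM scaling, filterByExpr (minimum count 10, minimum total 15), quasi-likelihood F-test on the group, and Benjamini-Hochberg adjustment over 16309 genes, with a gene called at an adjusted p under 0.05. The fit had 2 residual degrees of freedom. Standard errors were derived from the F statistic, and log2 fold changes are shMETTL14 over shNC. Exon lengths, positions and sequences came from GENCODE 29, which need not be the authors' release. Levels between single genes were compared per kilobase of exon, with all annotated exons of a gene counted. Summed CPM and the median log2 CPM of gene lists were not scaled by length. Coding ends of the alpha tubulins are not reported here.

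Members, classes and lists were chosen with earlier results of these data known. Any member, METTL14 or marker could be named, and of the other microtubule genes the 5 largest increases and 5 largest decreases among those called at a mean log2 CPM not under 2. Alternatives were other scalings, other filters, DESeq2 1.42.0, the replicate number as a block and leaving out each library. The procedure was also run on simulated counts with a common dispersion and few changed genes. That setting is simpler than these data, so it gives no error rate for them. Libraries of a group differed by more than counting error (chi-square per gene, averaged, 2.78 for shNC and 2.27 for shMETTL14), so each library was kept as its own replicate. The common biological coefficient of variation was small, at 3.45%. These values cannot show whether the libraries of a group came from separate cultures. No unmatched sample column was present.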

Additional observations from a re-analysis of the deposited data

How the results depend on the processing

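Of 440 comparisons of a member with an alternative, 401 kept their direction and side of the threshold, 19 lost and 5 gained the call, and 15 changed sign; these fell on 14 members, and the cause was not tested. None of the sign changes concerned a gene called above. Under upper quartile scaling the median of all genes was -0.07 and 41.7% of all calls were higher (51.8% with TMM, 44.9% with library size alone), while members were 25 higher and 3 lower, and with library size alone 25 higher and 2 lower. The count of members called was 27 to 30 with 1 library left out and 26 of those left once the 8 members sharing over 5% of windows were taken out, an alternative added after seeing the data. The count at 1.5-fold or more was 14 to 15 with 1 library left out and 5 at 2-fold. Upper quartile scaling gave a neuronal median of 0.47, library size alone 0.50, and it stood at 0.47 with mixed members added and 0.49 to 0.59 with 1 library left out. The ubiquitous median was 0.21, 0.23 and 0.19 in the same order, 0.34 without members sharing windows, and 0.27 to 0.35 with 1 library left out. DESeq2 called 34 of the other microtubule genes, 24 higher and 10 lower, in place of 56, or 35.4% beside 36.9% of all genes, and leaving out 1 library gave 43 to 47.

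Signs turned for uncalled genes: upper quartile scaling gave TUBB -0.039, TUBB2B -0.0088, TUBG2 -0.038 and MAP6 -0.060, library size alone gave TUBB -0.017, TUBG2 -0.015 and MAP6 -0.037, and 10 counts in every library gave MAP6 -0.010. With 1 library left out, TUBB2B ran from -0.115 to 0.226, TUBG2 from -0.075 to 0.147, MAP4 from -0.062 to 0.010, MAP6 from -0.059 to 0.083 and MAPRE3 from -0.057 to 0.323. TUBA1B passed the test in 3 alternatives, including the replicate block (adjusted p = 0.00766), and MAP9 fell under upper quartile scaling (adjusted p = 0.0321). The TUBB3 share differed by 0.0564 to 0.0706 points with 1 library left out and by 0.0858 points per kilobase of unshared exon. METTL14 stayed between -1.33 and -1.21 in all 11 alternatives.

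Same-numbered libraries correlated at 0.0698 in their deviations. With 2 libraries a group this cannot settle whether same-numbered libraries were handled together. The replicate block gave 31 members called, 14 at 1.5-fold, 58 other genes, medians of 0.54 and 0.27, and -1.26 for METTL14. With 2 libraries a group, low-count members such as TUBA4A and TUBB3 have the widest errors.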
